A study of Mus musculus with 4 samples.

Results

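The opioid genes described here are 3 genes for peptide precursors, Penk, Pdyn and Pnoc, and the 4 genes for receptors, Oprm1, Oprd1, Oprk1 and Oprl1. Pomc, the precursor of beta-endorphin, was counted with the pathway genes. These 7 genes were taken by symbol from the 40091 genes listed in the series, and all 7 were listed in each of the 4 libraries. Single-nucleus RNA sequencing (snRNA-seq) was carried out on thalamus of adult wild-type (WT) C57BL6 mice. Injections were made in the right VPM and VPL, the main sensory relay nuclei of the thalamus, with saline in the NS group and with Coll IV, a collagenase that digests the wall of vessels and produces a thalamic haemorrhage, in the COL group. Tissue was taken 7 days after the injection. Each group had 2 libraries, each from the pooled tissue of 3 mice, so that the n of 2 is one of pools and p-values measure the spread between pools. The question of the design was how the haemorrhage changed the cells of the thalamus, and for these genes it was in which cells they were read and whether the COL libraries differed.

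Opioid precursors are cut by proconvertases at pairs of basic residues into short peptides: enkephalins from Penk, dynorphins from Pdyn and nociceptin from Pnoc. The mu, delta and kappa receptors (Oprm1, Oprd1, Oprk1) and the nociceptin receptor (Oprl1) couple to inhibitory G proteins, which open inward-rectifier potassium channels, close presynaptic calcium channels and lower cyclic AMP. The mu receptor is the main target of morphine. Thalamic relay neurons are known to carry it, whereas most enkephalin of the forebrain is made by striatal neurons.

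The libraries of NS replicates 1 and 2 and COL replicates 1 and 2 held 77557870, 68746459, 69513636 and 69511080 unique molecular identifiers (UMIs), each of which stands for 1 captured RNA molecule. Of 32332 barcodes, 32291 passed the filters and were put in classes by marker genes, none of which was an opioid gene. Of 14859 neurons, 4148 had at least 2 UMIs of Gad1 and Gad2 together, the genes of the enzymes of GABA synthesis, and at least 4 times as many as of Slc17a6, the vesicular glutamate transporter gene, and were called GABA neurons. Another 3111 met the reverse rule and were called glutamatergic neurons. The other 7600 could not be split, among them 2199 with 2 or more UMIs of at least 1 kind. Tcf7l2, a transcription factor of thalamic relay neurons, was read with at least 2 UMIs in 2304 of the 3111. The other 807 are called without Tcf7l2 below, although some of them held 1 UMI of it. There were also 8613 oligodendrocytes, 2150 astrocytes, 1632 microglia and macrophages and 1003 oligodendrocyte precursors (OPC). A list of 5 hypothalamic genes was higher in both NS than in both COL libraries, and highest in NS replicate 1: in GABA neurons it summed to 77.3 and 57.7 CPM (the UMIs of a gene scaled by the UMI total of the class) against 14.0 and 29.5 CPM. Between 31 and 65 barcodes per library occurred in another library too.

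The precursors carry their peptides as short stretches between pairs of basic residues, shown here because these stretches become the ligands of the receptors. In the sense strand of the coding sequence, the motif TANGGNGGNTTN, read in frame, takes in every spelling of the core of enkephalin and dynorphin, Tyr-Gly-Gly-Phe, and TTNGGNGGNTTN takes in every spelling of that of nociceptin, Phe-Gly-Gly-Phe. Since TTN also stands for leucine, a match in another gene need not spell either core, and the counts over all genes are counts of these letters. The Penk sequence of 268 codons held 7 copies of the first motif, and the Pdyn sequence of 248 codons held 3. Pnoc, with 212 codons, held 1 copy of the second. None of the 4 receptor genes held either. Among 21756 mouse coding sequences the first motif occurred in 87 (0.4%) and only 4 held 3 or more copies, while the second occurred in 177 (0.814%). The copies shown, 4 of Penk, 2 of Pdyn and that of Pnoc, come from GENCODE M21 transcripts on GRCm38, the assembly that mm10 names. They run 5′ to 3′ on the coding strand, with the motif in capitals and 2 flanking codons on each side in lower case.
Penk copy 1 (minus strand, chr4:4134331-4134354, exon 2 of 2): aagaagTACGGAGGCTTCatgaaa
Penk copy 3 (minus strand, chr4:4134223-4134246, exon 2 of 2): aagaggTATGGCGGCTTCatgaag
Penk copy 6 (minus strand, chr4:4133938-4133961, exon 2 of 2): aagaggTATGGGGGCTTCctgaag
Penk copy 7 (minus strand, chr4:4133845-4133868, exon 2 of 2): aaaagaTACGGGGGCTTTatgcgg
Pdyn copy 1 (minus strand, chr2:129688235-129688258, exon 4 of 4): aaacgcTATGGCGGCTTTttgcgc
Pdyn copy 3 (minus strand, chr2:129688070-129688093, exon 4 of 4): aagcgcTATGGTGGTTTCctgcgg
Pnoc (minus strand, chr14:65404875-65404898, exon 3 of 4): aaaaggTTTGGGGGCTTCaccggg
In each printed copy the 2 codons before the motif are codons of lysine or arginine, the basic pair at which proconvertases cut. The codon after the core is that of methionine in Penk copies 1, 3 and 7 and that of leucine in Penk copy 6 and in both printed copies of Pdyn, the residue that separates Met-enkephalin from Leu-enkephalin. The nociceptin core of Pnoc opens with a codon of phenylalanine in place of tyrosine and goes on with one of threonine.

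Overlaps with other genes bear on the counts of Oprm1 and Penk. Penk (chr4:4133531-4138819, minus strand) spans 5289 bases, and Oprm1 (chr10:6758506-7038198, plus strand) spans 279693 bases. Over 152403 of these bases Oprm1 overlaps Ipcef1, a gene on the opposite strand, and over 3256 bases it overlaps Gm10945. Penk overlaps the opposite-strand transcript A830012C17Rik over 499 bases. These overlaps are of whole gene spans, and exons make up 8037 bases (2.874%) of Oprm1. Whether the counting used strand is not given in the sources used here. It is therefore not known whether reads from the genes of such a pair were told apart in the shared bases. The other 5 genes overlapped no gene of this annotation. They lie at chr2:129686565-129699844 (Pdyn, minus), chr14:65400673-65425472 (Pnoc, minus), chr4:132110726-132144486 (Oprd1, minus), chr1:5588466-5606131 (Oprk1, plus) and chr2:181715016-181720985 (Oprl1, plus).

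**Figure D1:**
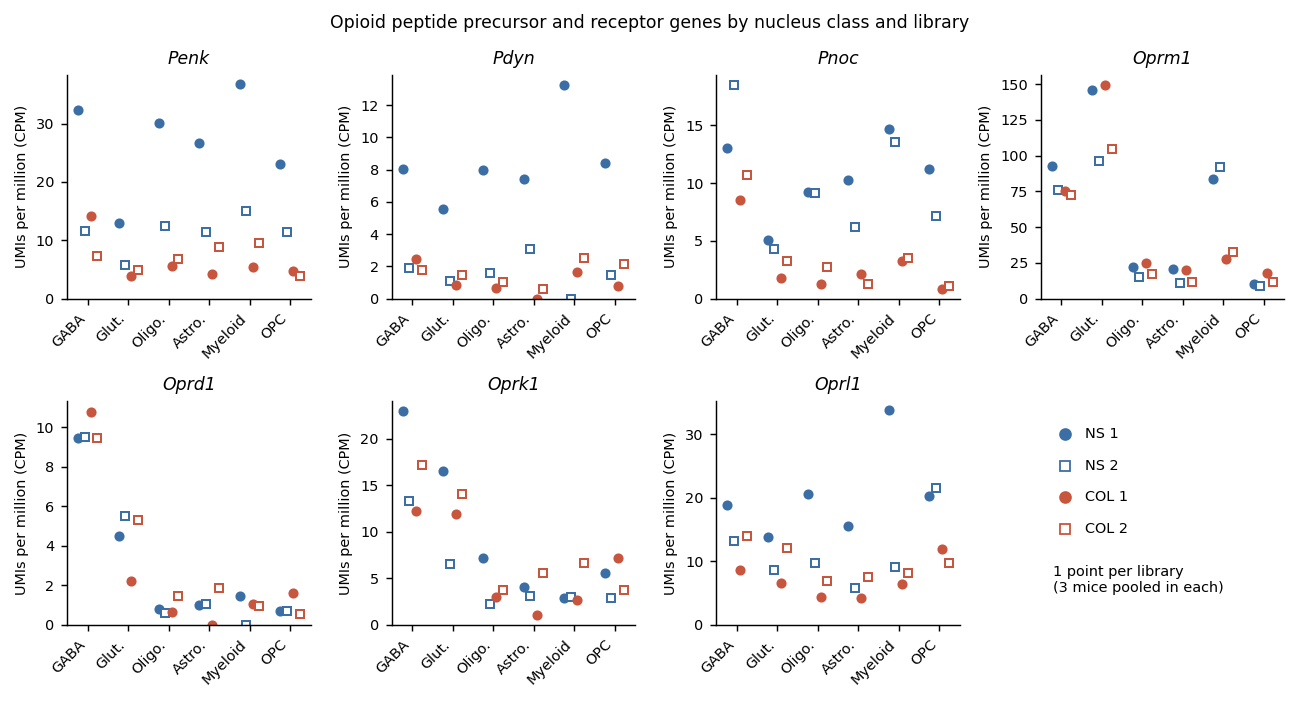
CPM (linear axis) of the 7 opioid genes in 6 nucleus classes, with 1 point per library of 3 pooled mice (blue NS, red COL, filled replicate 1, open replicate 2). Oprm1 stood between 72.2 and 150 CPM in the split neurons of every library, Oprd1 was higher in GABA neurons than in any glial class, and the highest Penk point of each class was that of NS replicate 1.

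Penk, the enkephalin precursor, was read in every class. In GABA neurons it reached 32.4 and 11.7 CPM in NS replicates 1 and 2 and 14.1 and 7.38 CPM in COL replicates 1 and 2. Oligodendrocytes, taken as the reference for free RNA, had 30.1, 12.4, 5.65 and 6.75 CPM in the same order. By CPM the GABA level was therefore 1.08, 0.943, 2.5 and 1.09 times that of the oligodendrocytes of its own library. On this scale it was clearly above them in COL replicate 1 alone. By UMIs per nucleus, with GABA neurons the deeper class, the ratios were 3.13, 2.85, 6.64 and 2.70. In glutamatergic neurons Penk stood at 13.01, 5.72, 3.86 and 4.90 CPM, below the CPM of oligodendrocytes in all 4 libraries. By UMIs per nucleus the order turned, with ratios to oligodendrocytes of 1.86, 2.02, 2.53 and 2.08.

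Shares of nuclei at equal depth gave the same picture as CPM. After each nucleus was thinned to 2000 UMIs, 5.32, 2.52, 2.83 and 1.61% of GABA neurons held a Penk UMI, against 6.20, 2.58, 1.16 and 1.46% of oligodendrocytes. Without thinning the shares were 18.6, 9.10, 12.2 and 9.45% of GABA neurons, with a median of 8745 to 15024.5 UMIs, and 10.4, 3.77, 3.32 and 4.33% of oligodendrocytes, with a median of 2953 to 5996 UMIs. The thinned Penk share of GABA neurons was thus at the oligodendrocyte level in both NS libraries and close to it in COL replicate 2. The unthinned share was above that of oligodendrocytes in all 4 libraries. CPM and thinning scale by the depth of the nucleus, and whether free RNA does so was not tested. A small set of nuclei held more Penk. Among GABA neurons 23, 0, 6 and 1 nuclei of the 4 libraries held 5 or more Penk UMIs, as did 8, 2, 2 and 2 unsplit neurons and 1 unassigned nucleus. No glutamatergic neuron, oligodendrocyte, astrocyte, microglial nucleus or OPC did.

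Pdyn, the dynorphin precursor, was also read in neurons and glia alike. It stood at 8.04, 1.93, 2.43 and 1.79 CPM in GABA neurons and at 8.001, 1.61, 0.652 and 1.06 CPM in oligodendrocytes. Thinned shares were 1.55, 0.542, 0.534 and 0.31% of GABA neurons and 1.75, 0.356, 0.157 and 0.236% of oligodendrocytes, and unthinned shares were 6.44, 1.78, 3.15 and 2.28% against 2.88, 0.464, 0.391 and 0.711%. In NS replicate 1 the 2 classes were alike on the thinned scale, and in that library Pdyn was between 5.53 and 13.2 CPM in all 6 classes. The ratio of Penk to Pdyn UMIs in GABA neurons was 4.03, 6.06, 5.81 and 4.12 in the 4 libraries, and in glia and vascular nuclei together it was 3.50, 6.45, 7.30 and 5.29. Single glial classes with few Pdyn UMIs ranged from 1.75 to 14.

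Pnoc, the nociceptin precursor, had the largest ratio of GABA neurons to oligodendrocytes among the precursors in every library. It reached 13.01, 18.5, 8.55 and 10.7 CPM in GABA neurons, 5.10, 4.26, 1.78 and 3.27 CPM in glutamatergic neurons and 9.20, 9.14, 1.30 and 2.70 CPM in oligodendrocytes. Microglia and macrophages had 14.7, 13.6, 3.25 and 3.47 CPM, above GABA neurons in NS replicate 1. OPC had 11.2, 7.17, 0.80 and 1.09 CPM and astrocytes 10.3, 6.21, 2.14 and 1.25 CPM. The GABA level exceeded that of oligodendrocytes in all 4 libraries, by 1.41, 2.03, 6.56 and 3.96 times. Thinned shares followed, with 2.60, 3.60, 1.69 and 2.26% of GABA neurons against 1.91, 1.88, 0.297 and 0.564% of oligodendrocytes, and unthinned shares were 11.3, 14.6, 9.89 and 13.3% against 3.22, 2.78, 0.782 and 1.81%. Glutamatergic neurons had thinned Pnoc shares of 1.13, 0.908, 0.352 and 0.719%, near or below those of oligodendrocytes.

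**Figure D2:**
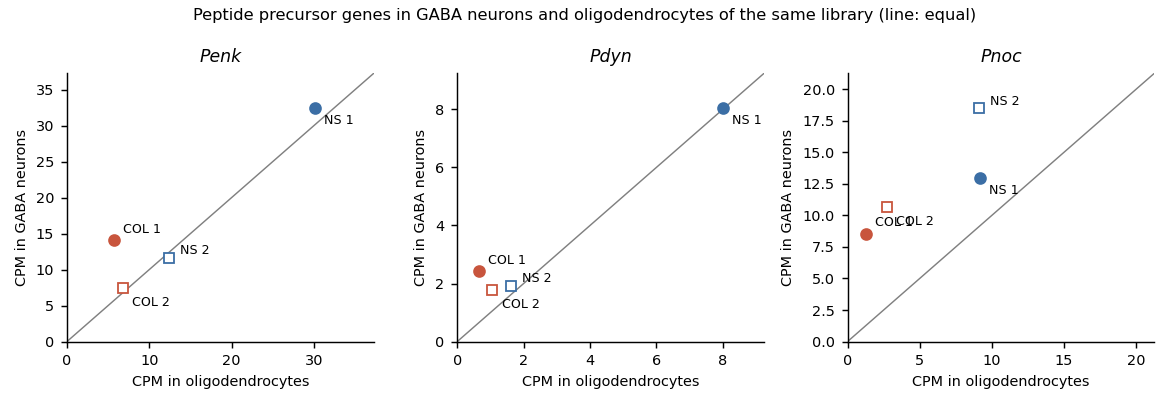
CPM of Penk, Pdyn and Pnoc in GABA neurons (vertical axis) against oligodendrocytes (horizontal axis) of the same library, 1 point per library, with the line of equality in grey. Penk lay near the line in 3 libraries (ratios of 0.943 to 1.09) and above it in COL replicate 1 (2.5), whereas Pnoc lay above it in all 4 (1.41 to 6.56).

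Oprm1, the mu receptor, stood well above background in both neuron classes. Glutamatergic neurons held 146, 96.4, 150 and 104 CPM and GABA neurons 92.9, 76.1, 75.3 and 72.2 CPM. Oligodendrocytes had 22.1, 15.2, 24.7 and 17.2 CPM, so the glutamatergic level was 6.06 to 6.60 times and the GABA level 3.05 to 4.99 times that of oligodendrocytes. The levels of the 2 neuron classes did not overlap. After thinning, 20.4, 14.2, 21.1 and 15.7% of glutamatergic neurons and 15.5, 12.9, 13.1 and 12.4% of GABA neurons held an Oprm1 UMI, against 4.48, 2.96, 5.24 and 3.56% of oligodendrocytes. The median depth of glutamatergic neurons was 12770.5 to 20069.5 UMIs. Without thinning the shares were 58.7, 43.3, 61.5 and 54.3% of glutamatergic neurons, 44.4, 35.9, 45.6 and 46.1% of GABA neurons and 7.20, 4.58, 12.8 and 10.5% of oligodendrocytes.

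Within glutamatergic neurons Oprm1 went with Tcf7l2. Nuclei with at least 2 Tcf7l2 UMIs had 170, 102, 155 and 110 CPM, and those without had 83.3, 75.1, 72.6 and 87.5 CPM, a range that overlapped that of GABA neurons. The Tcf7l2 nuclei were also deeper, with medians of 14535 to 20707 UMIs against 9363 to 15939.5, and the thinned shares of 24.3, 15.0, 21.9 and 16.8% against 14.4, 12.6, 12.8 and 13% kept the order in every library.

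Oprd1, the delta receptor, was low but neuronal. It stood at 9.46, 9.52, 10.8 and 9.44 CPM in GABA neurons, a spread of under 2 CPM over the 4 libraries. In glutamatergic neurons it was 4.51, 5.53, 2.22 and 5.31 CPM, and in oligodendrocytes 0.8001, 0.627, 0.652 and 1.45 CPM. The GABA level was 6.53 to 16.6 times that of oligodendrocytes, which was the largest such ratio of the 7 genes in every library. Thinned Oprd1 shares were 1.75, 1.72, 1.87 and 1.79% of GABA neurons and 0.145, 0.114, 0.148 and 0.338% of oligodendrocytes, and unthinned ones were 7.92, 7.64, 10.5 and 10.7% against 0.288, 0.203, 0.326 and 0.904%. Glutamatergic neurons with fewer than 2 Tcf7l2 UMIs had 12.7, 12.4, 9.87 and 11.4 CPM, whereas those with at least 2 had 1.41, 3.69, 1.66 and 3.27 CPM, the opposite order to Oprm1. GABA neurons with at least 2 UMIs of Dlx6os1, a transcript of forebrain GABA neurons, had 12.4, 18.5, 12.9 and 14.3 CPM of Oprd1 and those without had 8.46, 8.91, 10.1 and 8.39 CPM.

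Oprk1, the kappa receptor, was at 23.0, 13.4, 12.2 and 17.2 CPM in GABA neurons and at 16.6, 6.53, 11.96 and 14.04 CPM in glutamatergic neurons. Oligodendrocytes had 7.20, 2.24, 3.04 and 3.76 CPM. Both neuron classes were above the oligodendrocytes of their library, GABA neurons by 3.19 to 5.97 times and glutamatergic neurons by 2.30 to 3.93 times. Thinned shares were 4.46, 2.62, 2.19 and 3.19% in GABA neurons and 3.53, 1.65, 2.36 and 2.71% in glutamatergic neurons, against 1.63, 0.444, 0.586 and 0.849% in oligodendrocytes. The unthinned shares were 16.9, 10.4, 11.3 and 18.5%, 18.2, 8.33, 16.3 and 17.8%, and 2.54, 0.725, 1.69 and 2.39% in the same 3 classes.

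Oprl1, the nociceptin receptor, separated neurons from glia least among the receptors. GABA neurons had 18.9, 13.2, 8.64 and 14.1 CPM, glutamatergic neurons 13.9, 8.62, 6.65 and 12.2 CPM and oligodendrocytes 20.7, 9.76, 4.35 and 6.85 CPM. The GABA level was 0.912 and 1.35 times that of oligodendrocytes in the NS libraries and 1.99 and 2.05 times in the COL libraries. OPC had 20.3, 21.5, 12.01 and 9.77 CPM, at or above the GABA level in 3 libraries. Per nucleus OPC were below GABA neurons in every library, with 0.101, 0.0935, 0.0893 and 0.0789 Oprl1 UMIs against 0.197, 0.129, 0.138 and 0.232. Thinned shares were 3.90, 2.56, 1.79 and 2.72% of GABA neurons, 4.04, 2.04, 0.984 and 1.39% of oligodendrocytes and 4.61, 4.24, 2.2 and 1.94% of OPC. The unthinned shares were 17.9, 11.9, 12.6 and 20.4%, 6.87, 3.1, 2.54 and 4.46%, and 9.44, 9.35, 8.93 and 6.58%, with a median of 4150 to 7431 UMIs in OPC, and no nucleus of the 6 classes held 5 or more Oprl1 UMIs.

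The comparison of GABA with glutamatergic neurons asked which opioid genes differ between the main neuron classes, with the library as a block and 8 sums of counts. Penk, Pnoc and Oprd1 were higher in GABA neurons and Oprm1 was lower, by the quasi-likelihood test of edgeR with p-values adjusted over 18503 genes (Benjamini-Hochberg). The log2 fold change was 1.70 for Pnoc (SE 0.16, adjusted p = 6.69e-05), 1.11 for Penk (SE 0.17, adjusted p = 0.00114) and 1.1 for Oprd1 (SE 0.23, adjusted p = 0.00602). It was -0.76 for Oprm1 (SE 0.09, adjusted p = 0.000245). Each of these 4 differences had the same direction in 4 of 4 libraries and passed under 14 of 14 alternative settings, none of which split glutamatergic neurons by Tcf7l2. In the glutamatergic neurons without Tcf7l2, Oprd1 (12.7, 12.4, 9.87 and 11.4 CPM) was above GABA neurons in all libraries but COL replicate 1. Oprm1 (83.3, 75.1, 72.6 and 87.5 CPM) was below GABA neurons there in all libraries but COL replicate 2. GABA neurons were not tested against this subset. A830012C17Rik, the transcript that overlaps Penk on the opposite strand, was also higher in GABA neurons (1.79, SE 0.37, edgeR adjusted p = 0.00592), and its part in the Penk counts was not tested. Pdyn (0.59, adjusted p = 0.079), Oprk1 (0.29, adjusted p = 0.14) and Oprl1 (0.28, adjusted p = 0.0629) did not pass. Thus 3 of 7 genes were higher, where 12.7% of all tested genes were, and 1 of 7 was lower, where 13.3% were. The fold of Penk sits beside the levels in oligodendrocytes given above, with CPM ratios of GABA neurons to oligodendrocytes of 1.08, 0.943 and 1.09 in all libraries but COL replicate 1. The ratios of UMIs per nucleus were 3.13, 2.85 and 2.70 in those libraries and 6.64 in COL replicate 1.

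**Figure D3:**
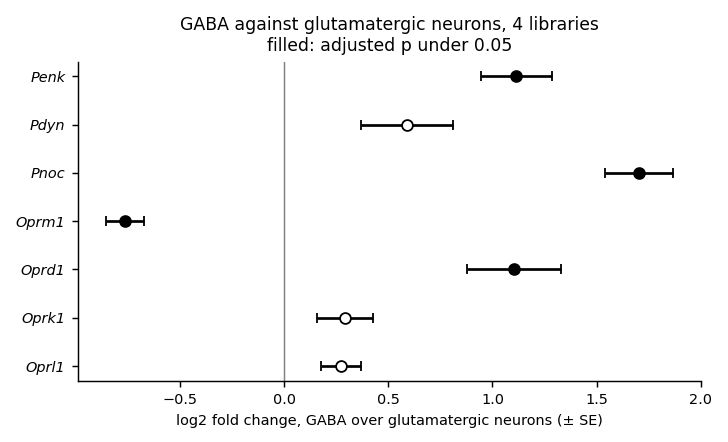
Log2 fold change of the 7 genes in GABA over glutamatergic neurons with its SE (horizontal axis), from 4 libraries with 2 sums each, filled where the adjusted p was under 0.05. Pnoc (1.70), Penk (1.11) and Oprd1 (1.1) lay to the right, Oprm1 (-0.76) lay to the left, and Pdyn, Oprk1 and Oprl1 are open.

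The proteins that process the peptides and carry the receptor signal were followed with a list of 45 symbols, of which 42 were tested. In GABA against glutamatergic neurons 9 were higher and 16 lower, where 12.7% and 13.3% of all genes were, with a median log2 fold change of -0.09 against 0.04 over all tested genes. Among processing enzymes, Pcsk2, a proconvertase that cuts opioid precursors, was lower in GABA neurons (log2 fold change -1.52, adjusted p = 9.92e-07), as were the proconvertase Pcsk1 (-0.43) and the carboxypeptidase Cpe (-0.43). Mme, the gene of neprilysin, which degrades enkephalins, was higher (1.03, adjusted p = 0.000627). All 4 inward-rectifier channel genes of the list were lower in GABA neurons, namely Kcnj5 (-1.46), Kcnj9 (-0.98), Kcnj6 (-0.66) and Kcnj3 (-0.37). So were the receptor kinase Grk3 (-0.98) and the calcium channel subunits Cacna1a (-0.29) and Cacna1b (-0.19). Among regulators of G protein signalling, Rgs7 (-0.84), Rgs8 (-0.73) and Rgs4 (-0.49) were lower and Rgs9 (1.07) was higher. Pomc was listed at a log2 fold change of 0.89 (adjusted p = 0.0104). The glutamatergic class, in which Oprm1 was higher, was thus the one with more of the Kcnj channel transcripts.

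Between the COL and NS groups, no opioid gene passed edgeR's test in either neuron class with the filter on low counts and no replicate block. In GABA neurons edgeR called 0 of 19217 genes (0.0%) and 0 of the 7, with 5281 genes at an unadjusted p under 0.05, while DESeq2 called 382 higher and 994 lower genes and none of the 7. In glutamatergic neurons edgeR called 0 of 18476 genes (0.0%) and 0 of the 7, with 3611 at an unadjusted p under 0.05, and DESeq2 called 171 higher and 558 lower genes and none of the 7. The receptor estimates lay between -0.42 and 0.24. In GABA neurons the log2 fold change of COL over NS was -0.05 for Oprm1 (SE 0.14), -0.17 for Oprk1 (SE 0.27), 0.24 for Oprd1 (SE 0.23) and -0.36 for Oprl1 (SE 0.26). In glutamatergic neurons it was 0.15 for Oprm1 (SE 0.27), 0.23 for Oprk1 (SE 0.39), -0.42 for Oprd1 (SE 0.42) and -0.23 for Oprl1 (SE 0.33). The make-up of this class varied, since nuclei with Tcf7l2 were 457 of 758, 545 of 780, 849 of 934 and 453 of 639 in the 4 libraries, the largest share being that of COL replicate 1. In nuclei with and without Tcf7l2 taken apart, the estimates were -0.0066 and 0.10 for Oprm1 and -0.11 and -0.14 for Oprd1.

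The precursor estimates in neurons were larger and all below 0. In GABA neurons they were -0.88 for Penk (SE 0.51, edgeR adjusted p = 0.297), -1.12 for Pdyn (SE 0.63, adjusted p = 0.287) and -0.57 for Pnoc (SE 0.26, adjusted p = 0.209). In glutamatergic neurons they were -1.04 for Penk (SE 0.39, adjusted p = 0.224), -1.47 for Pdyn (SE 0.73, adjusted p = 0.322) and -0.87 for Pnoc (SE 0.36, adjusted p = 0.254). The Penk and Pdyn estimates rested on 1 library. Without NS replicate 1 the Penk estimate was -0.013 in GABA and -0.37 in glutamatergic neurons, and that of Pdyn was 0.22 and 0.08. Pnoc was at -0.85 and -0.77 without that library, and at -0.24 in GABA neurons without NS replicate 2. With no filter on low counts, Penk passed in GABA (adjusted p = 0.00374) and glutamatergic neurons (adjusted p = 0.0181), and so did Pdyn (0.026 and 0.0193). With the replicate number as a block Penk passed in GABA neurons (-0.80, edgeR adjusted p = 0.0309), although the numbers were not taken as pairing the libraries.

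Whether the COL against NS change differed between the 2 neuron classes was tested as an interaction. For the 7 genes the difference of log2 fold changes lay between -0.46 (Oprk1, SE 0.23) and 0.66 (Oprd1, SE 0.43), with adjusted p of 0.952 to 0.98. Over all genes edgeR called 0 of 19787 (0.0%), with 918 at an unadjusted p under 0.05, and DESeq2 called 0 with 159. None of the 42 pathway genes tested passed for COL against NS in either neuron class.

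**Figure D4:**
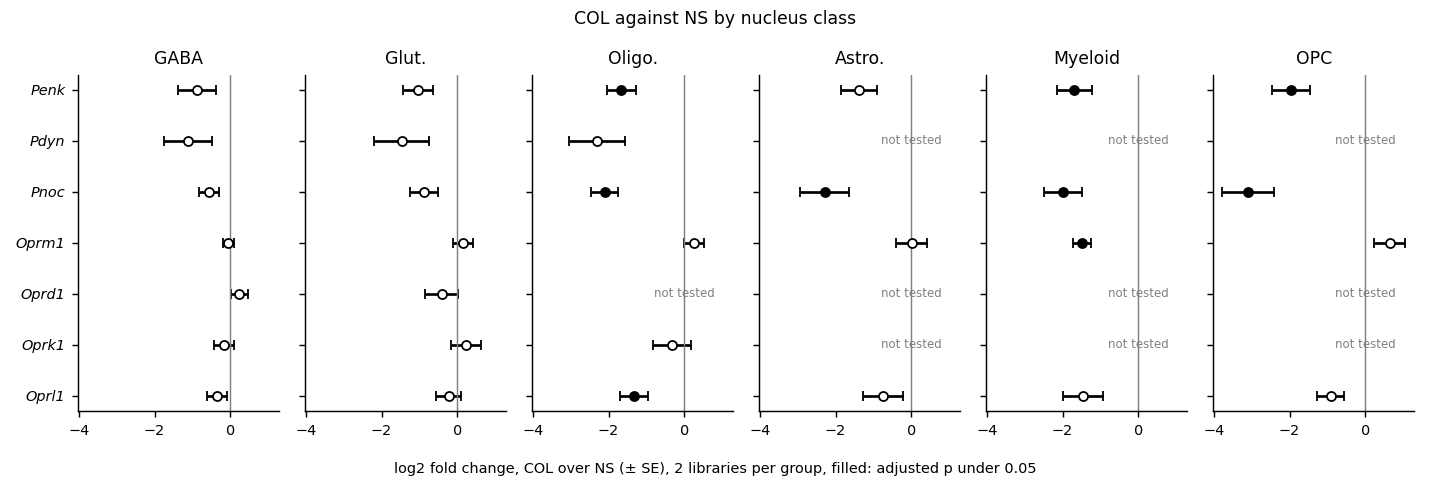
Log2 fold change of COL over NS with its SE (horizontal axis) for the 7 genes in 6 nucleus classes, 2 libraries per group, filled where the adjusted p was under 0.05. No neuron point is filled, all filled points lie below 0, and Pnoc is filled in all 4 glial classes.

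In glia, the opioid genes that passed were all lower by CPM in the COL libraries, where the glial nuclei were also deeper. Oligodendrocytes showed this for Pnoc (log2 fold change -2.11, SE 0.37, edgeR adjusted p = 0.00892), Penk (-1.66, SE 0.37, adjusted p = 0.0186) and Oprl1 (-1.33, SE 0.37, adjusted p = 0.0348), so 3 of 6 tested opioid genes were lower, where 12.1% of all genes were. Pdyn (-2.30, SE 0.74, adjusted p = 0.0551), Oprk1 (-0.33, SE 0.50, adjusted p = 0.662) and Oprm1 (0.26, SE 0.26, adjusted p = 0.491) did not pass, and Oprd1, with 6 to 15 UMIs per library, was left out by the filter on low counts. Median depth was 3192 and 2953 UMIs in NS and 5344 and 5996 UMIs in COL oligodendrocytes. Penk UMIs per nucleus were 0.108 and 0.0400 in NS and 0.0339 and 0.0452 in COL. Those of Oprl1 were 0.0744 and 0.0316 in NS and 0.0261 and 0.0459 in COL. The unthinned Pnoc share, given above, was lower in both COL libraries. Without NS replicate 1 the changes of Penk (-0.97, adjusted p = 0.0984) and Oprl1 (-0.78, adjusted p = 0.242) no longer passed, whereas that of Pnoc passed in 13 of 13 alternatives.

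Astrocytes held 40 and 18 Pnoc UMIs in the NS libraries but only 2 and 2 in the COL libraries, from 140 and 220 COL nuclei. Pnoc stood there at 10.3 and 6.21 CPM in the NS libraries and 2.14 and 1.25 CPM in the COL libraries (log2 fold change -2.29, SE 0.64, edgeR adjusted p = 0.0313). This was 1 of 4 tested opioid genes, where 8.28% of all genes were lower, and it no longer passed without NS replicate 2 (adjusted p = 0.0875) or COL replicate 2 (adjusted p = 0.148), with a log2 fold change of -2.64 to -1.84 over the 10 alternatives. The other tested genes of astrocytes did not pass: Penk stood at 26.7 and 11.4 CPM against 4.28 and 8.76 CPM (-1.39, adjusted p = 0.0687), and the estimates were -0.74 for Oprl1 (adjusted p = 0.374) and 0.0038 for Oprm1 (adjusted p = 0.996). In OPC Pnoc fell from 11.2 and 7.17 CPM to 0.80 and 1.09 CPM (-3.1, SE 0.68, adjusted p = 0.00623), where the COL libraries held 3 UMIs in all against 26 in the NS libraries, a CPM ratio of 0.105 (exact 95% counting interval 0.0204 to 0.344). Penk fell from 23.1 and 11.5 CPM to 4.80 and 3.80 CPM (-1.97, SE 0.49, adjusted p = 0.0133). These 2 of 4 tested genes compare with 8.94% of all genes that were lower in OPC. Pnoc did not pass without NS replicate 2 (adjusted p = 0.0628) or COL replicate 2 (0.0537), although its log2 fold change was between -3.35 and -2.96 in all 9 alternatives, nor did Penk without NS replicate 1 (0.347), and DESeq2 called neither (0.105 and 0.112). Oprl1 (-0.91, adjusted p = 0.0928) and Oprm1 (0.64, adjusted p = 0.317) did not pass in OPC. Oprk1, Oprd1 and Pdyn were left out by the filter on low counts in astrocytes, with 0 to 29 UMIs per library, and in OPC, with 1 to 12.

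In microglia and macrophages 3 of 4 tested opioid genes were lower in the COL group, Oprm1, Penk and Pnoc, where 13.2% of all genes were. The class differed in make-up: 9 of 293 and 15 of 315 NS nuclei, against 150 of 382 and 337 of 642 COL nuclei, lacked the resting-microglia genes or held a macrophage or activation gene. Pnoc stood at 14.7 and 13.6 CPM against 3.25 and 3.47 CPM (log2 fold change -1.99, SE 0.49, edgeR adjusted p = 0.0116), from 6 to 11 UMIs per library. It did not pass when any 1 of the 4 libraries was left out (adjusted p = 0.106 to 0.193) or by DESeq2 (adjusted p = 0.107), while the log2 fold change stayed between -2.29 and -1.73 in all 13 alternatives. Penk stood at 36.7 and 15.1 CPM against 5.41 and 9.47 CPM (-1.69, SE 0.47, adjusted p = 0.0212), and it did not pass without NS replicate 1 (-0.94, adjusted p = 0.384), by DESeq2 (adjusted p = 0.0712) or with a stricter lead of the marker list (-1.40, adjusted p = 0.0864). Oprl1 (-1.46, SE 0.53, adjusted p = 0.0588) did not pass, and Oprk1, Oprd1 and Pdyn, with 0 to 21 UMIs per library, were left out by the filter. Per nucleus of this class, Penk UMIs were 0.0853 and 0.0317 in the NS libraries and 0.0262 and 0.0467 in the COL libraries.

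Other values moved with the precursors across the glial sums. The 5 hypothalamic genes summed to 101, 79.6, 11.1 and 33.7 CPM in oligodendrocytes and to 172, 112, 8.12 and 41.7 CPM in microglia and macrophages of NS replicates 1 and 2 and COL replicates 1 and 2, so they were lower in the COL libraries as Penk and Pnoc were. They summed to 94.8, 76.2, 8.56 and 31.3 CPM in astrocytes and to 66.6, 60.2, 7.20 and 22.8 CPM in OPC. All 5 were detected in each oligodendrocyte sum, and up to 3 of the 5 were at 0 in single sums of the other 3 classes. The 6 general neuron markers were detected in every glial sum and moved the other way, from 871 and 771 CPM to 1491 and 1174 CPM in oligodendrocytes and from 1201 and 1048 CPM to 1649.9 and 1350.1 CPM in microglia and macrophages. These 6 genes were also the neuron list that sorted the nuclei, so the sorting itself limited their level in glial sums. The part of RNA from other cells in the glial values of Penk, Pdyn, Pnoc and Oprl1 was not tested. Among the pathway genes, the neuroendocrine transcripts Pcsk1n and Scg5, which inhibit and assist proconvertases, were lower in the COL oligodendrocytes (-1.72 and -0.86), astrocytes (-1.67 and -0.81) and microglia and macrophages (-2.10 and -1.23), and Pcsk1n was lower in OPC (-1.62). Higher pathway genes numbered 9 of 42 in oligodendrocytes (9.86% of all genes were higher), 8 of 38 in astrocytes (6.74%), 6 of 37 in microglia and macrophages (14.1%) and 3 of 38 in OPC (8.69%). Kcnj3 passed in all 4 (1.05, 0.98, 0.85 and 0.60), and Cacna1a passed in all but OPC (1.32, 0.99 and 1.48). Lower pathway genes numbered 5, 3, 2 and 1 in the same order, where 12.1, 8.28, 13.2 and 8.94% of all genes were lower. The median of the list was 0.20, 0.13, 0.08 and 0.19 against 0.01, -0.02, 0.01 and 0.01 over all genes.

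Oprm1 in microglia and macrophages was, beside Pnoc in oligodendrocytes, the group difference that passed under all 13 alternatives. It stood at 83.8 and 91.9 CPM in the NS libraries, close to GABA neurons on this scale, and at 27.6 and 32.8 CPM in the COL libraries, 1.12 and 1.91 times the oligodendrocytes there (log2 fold change -1.48, SE 0.23, edgeR adjusted p = 0.00107). Per nucleus it was far below GABA neurons, at 0.195 and 0.194 against 0.972 and 0.744 UMIs in the NS libraries. By CPM the groups of microglia and macrophages did not overlap, and the alternatives gave log2 fold changes of -1.60 to -1.36. After thinning to 2000 UMIs 13.9 and 17.9% of NS nuclei and 5.41 and 6.25% of COL nuclei held an Oprm1 UMI, with 109 and 157 NS nuclei and 6 and 10 COL nuclei left out as shallower. The two-sided exact permutation test of these shares gave p = 0.333, the smallest value that this test allows with 2 libraries per group. The fall was smaller per nucleus, a scale on which the COL libraries also had more reads. UMIs of Oprm1 per nucleus were 0.195 and 0.194 against 0.134 and 0.162, while the median depth of these nuclei rose from 2230 and 2001 UMIs to 4331 and 4468. The unthinned shares were 16.4% (exact Clopper-Pearson 95% interval 12.3 to 21.1%) and 15.2% (11.5 to 19.7%) against 11.3% (8.27 to 14.9%) and 13.6% (11 to 16.4%), intervals that cover counting error only. A change of Oprm1 per nucleus and a change of the other RNA in these nuclei cannot be told apart from the CPM alone. Nor can the values per nucleus be told apart from the greater number of reads per nucleus in the COL libraries.

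Ipcef1, which shares 152403 bases with Oprm1 on the other strand, was itself a transcript of this class. It stood at 123, 166, 98.5 and 87.8 CPM in microglia and macrophages, against 24.2, 20.3, 12.6 and 15.9 CPM in GABA neurons and 3.20, 2.15, 3.37 and 4.73 CPM in oligodendrocytes. Microglial nuclei with an Ipcef1 UMI held an Oprm1 UMI more often than the others in each library, at 30.2, 29.2, 15.0 and 21.4% against 12.6, 11.1, 9.82 and 11%. GABA neurons showed the same order, at 74.9, 68.1, 67.0 and 72.3% against 38.2, 30.2, 42.3 and 40.0%, and in both classes the nuclei with Ipcef1 were deeper, with medians of 2359, 2287.5, 4752 and 4589 UMIs against 2156, 1918, 4238 and 4430 in microglia and macrophages. The Oprm1 UMIs of microglia and macrophages numbered 0.679, 0.555, 0.280 and 0.374 per Ipcef1 UMI, against 3.74 to 5.97 in GABA neurons. Ipcef1 did not pass for COL against NS in this class (-0.59, SE 0.21, edgeR adjusted p = 0.0521). The part of Ipcef1 reads in the Oprm1 counts of microglia and macrophages was not tested, so the Oprm1 counts of this class are uncertain as a measure of the receptor transcript. In nuclei with a UMI of a resting-microglia gene and no UMI of 4 macrophage or activation genes, a subset chosen after seeing the data, Oprm1 stood at 86.2 and 91.3 CPM against 23.9 and 48.2 CPM (-1.25, adjusted p = 0.0119), where 11.9% of all genes were lower, and Ipcef1 was at -0.18 (adjusted p = 0.587). Per nucleus of this subset Oprm1 was lower in COL replicate 1 only, at 0.201 and 0.193 UMIs in the NS libraries against 0.108 and 0.216, with unthinned shares of 16.9 and 15.3% against 8.62 and 17.4%.

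**Figure D5:**
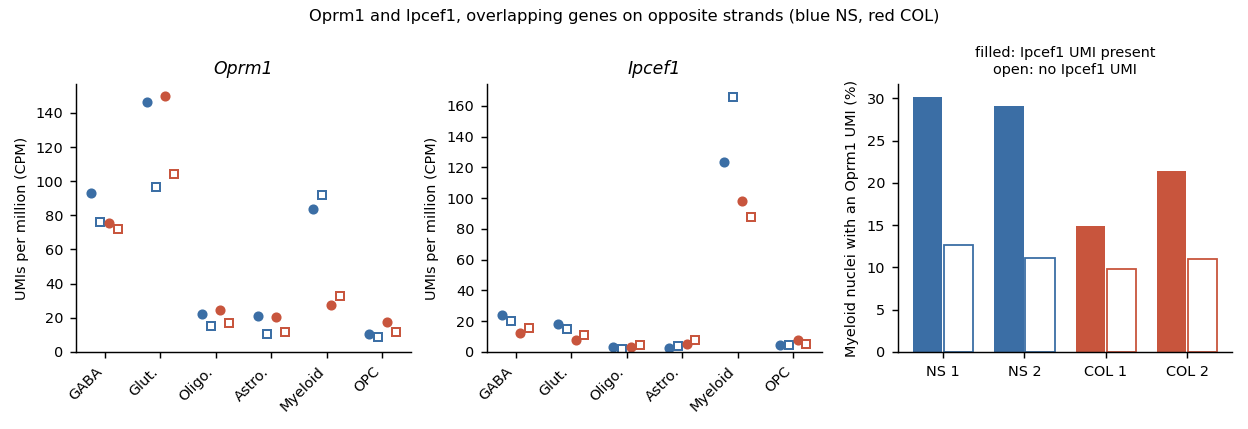
CPM of Oprm1 (left) and of Ipcef1 (middle) by class and library, and the percentage of microglia and macrophages with an Oprm1 UMI (right) where an Ipcef1 UMI was present (filled) or not (open), blue for NS and red for COL. Both genes were high in this class in the NS libraries, and the filled bars (15.0 to 30.2%) exceed the open ones (9.82 to 12.6%) in all 4 libraries.

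In the split neurons, the exact permutation test of thinned shares could not pass the threshold, because with 2 libraries per group it allows no p under 0.333. This smallest exact permutation p was reached in GABA neurons by Oprd1 (means of 1.73% in NS and 1.83% in COL), Pdyn (1.05% and 0.422%) and Pnoc (3.1% and 1.97%). In glutamatergic neurons it was reached by Penk (2.15% and 1.04%) and Pnoc (1.02% and 0.535%). The other pairs of gene and class did not reach it. Reaching it says only that the 2 groups did not overlap, which has a probability of 0.333 where the groups do not differ. The share of all genes that reached it is not given here, so the genes named are not singled out by it.

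The transcripts found with each opioid gene in single nuclei were described by the CPM ratio of nuclei with at least 2 UMIs to nuclei with none. Glutamatergic nuclei with Oprm1 numbered 297, 202, 427 and 215, and they were richest in Snx31 (5.22 to 11.2 times), Cd247 (4.56 to 6.54 times) and Igfbp7 (4.19 to 6.62 times). GABA neurons with Penk numbered 81, 16, 26 and 13. Their leading transcript was A830012C17Rik (4.46 to 10.3 times), the one that overlaps Penk on the opposite strand. Ebf2, a transcription factor, followed at 3.32, 5.33, 8.91 and 9.98 times. Drd2, the D2 dopamine receptor of striatal enkephalin neurons, was the next at 16.0, 2.61, 11.6 and 2.63 times, and was thus far higher in replicate 1 of each group. With Oprd1, on 25, 14, 26 and 31 nuclei, Abcc4 led (1.83 to 4.5 times) before Syt2, a synaptotagmin (1.75 to 3.52 times), and Utrn (1.54 to 2.38 times). With Oprk1, on 78, 21, 27 and 48 GABA nuclei, the ratios were small, led by Gng7, a G protein subunit (1.44 to 1.55 times), and Kcnq5, a potassium channel (1.4 to 1.55 times). With Oprl1, on 30, 8, 6 and 19 GABA nuclei, Gm26673 (2.11 to 3.22 times), Tbc1d7 (1.7 to 2.26 times) and Gorasp2 (1.49 to 1.72 times) led. With Pnoc, on 27, 22, 17 and 22 GABA nuclei, they were Dusp10 (1.73 to 2.8 times), Polr3gl (1.49 to 1.94 times) and Trmt10b (1.44 to 2.06 times). For Pdyn only 16, 1, 3 and 3 GABA nuclei had at least 2 UMIs, so the ratios of Baiap2 (2.99 to 7.29 times), Npas4 (2.98 to 8.41 times) and Cnnm4 (2.37 to 12.7 times) rest in part on 1 nucleus.

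Over the 32 sums of 8 classes and 4 libraries, the pattern most like that of Oprm1 on the log2(CPM + 1) scale was that of Hspa12a (Pearson r = 0.939), followed by Glra2 (0.926), a glycine receptor subunit, and Garnl3 (0.905). For Penk it was Gal, the galanin precursor (0.903), then Pnmal2 (0.882) and Pmch, the precursor of the hypothalamic melanin-concentrating hormone (0.881). The closest to Pnoc were Atpif1 (0.885), Got1 (0.874) and Bmyc (0.867), and to Pdyn Cbarp (0.851), Rtl5 (0.84) and Rpusd1 (0.829). Among the other receptors, Oprd1 was closest to Otof (0.896), Col19a1 (0.869) and Gm42303 (0.864), Oprk1 to Vwa5b1 (0.898), Gm37928 (0.875) and Rasgrf2 (0.869), and Oprl1 to Minar2 (0.842), Cyb561 (0.835) and Diras1 (0.82). These sums share their libraries and depth, and the values are descriptions.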

How the data were processed

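Nuclei were prepared by the authors with 10x Genomics chemistry, and Cell Ranger 1.2.0 and mm10 are named in the submitters' processing notes. What the authors deposited for each library were raw UMI counts of genes by nuclear barcode. Whether introns and strand were counted is not given in the sources used here, nor is any removal of doublets. Barcodes with more than 50 genes and under 5% mitochondrial UMIs were kept. In all, 102 distinct barcodes occurred in more than 1 library.

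For each marker list, its UMIs as a share of the UMI total of the nucleus were divided by the 99th percentile of that share over all kept nuclei. The leading list named the nucleus if its ratio was at least 0.1 and at least 2 times the next. GABA neurons needed at least 2 UMIs of Gad1 and Gad2 and at least 4 times those of Slc17a6, and glutamatergic neurons the reverse. The leading 10 genes by fold held own markers in the 4 glial classes. Those of GABA neurons held neither Gad1 nor Gad2 but the general neuron marker Rbfox3, and those of glutamatergic neurons, led by Slit3 and Ntng1, no marker. No class had markers of another. Since the same lists set the classes, this describes the classes and is no check of the sorting.

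Counts summed per library and class were tested with edgeR 4.0.16 in R 4.3.3 (quasi-likelihood F test after TMM scaling and filterByExpr, with adjustment by Benjamini-Hochberg over all genes and a threshold of 0.05), after the steps had been tested on simulated data. DESeq2 1.42.0, other normalizations, filters and gates, possible doublets (the 10% of nuclei with most markers of other types) left out, a replicate block and each library left out were alternatives. The resting-microglia subset was added after seeing the data. No doublet caller was run. Shares were set to 2000 UMIs per nucleus by the hypergeometric formula, shallower nuclei left out (161, 377, 2 and 1 oligodendrocytes and at most 2 split neurons per library), and compared with two-sided exact permutation tests.

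The rule for named genes took the 7 genes in every class, pathway genes past the threshold with up to 4 others, and for each of the 7 the 3 genes most alike by each of the measures, of which 1 is not reported here. Of the pathway genes past the threshold the text gives counts and examples, chosen after their values were seen. The members, lists and tests were chosen with earlier results of these data known.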

Additional observations from a re-analysis of the deposited data

Results flagged for a closer look

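For Oprm1 the COL libraries lay below the NS libraries in some classes and above them in another. The mean CPM of the COL libraries was 0.873 times that of the NS libraries in GABA neurons and 0.344 times in microglia and macrophages, with both COL libraries below both NS libraries in each. In OPC it was 1.55 times, at 17.6 and 11.9 CPM against 10.5 and 8.60 CPM, with both COL libraries above. Of these 3, only microglia and macrophages passed edgeR's test: the fitted log2 fold change was -0.05 (SE 0.14) in GABA neurons and 0.64 (SE 0.41) in OPC, from 12 to 22 UMIs per library. The difference between the classes was not tested. In GABA neurons the nearest libraries of the groups were NS replicate 2 at 76.1 CPM and COL replicate 1 at 75.3 CPM. A separation of 2 against 2 libraries can reach no exact permutation p under 0.333. The share of all genes that separated in this way is not given here.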

How the results depend on the processing

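With 2 libraries a group, several estimates of COL against NS rested on single libraries. Those of Pdyn, and those of Oprd1 and Pnoc outside GABA neurons, rested on few UMIs. All opioid genes that passed in glia kept their direction in every alternative in which they were tested, Oprm1 in microglia and macrophages and Pnoc in oligodendrocytes among them (all 13). In GABA neurons 0 genes passed for COL against NS, against 1376 by DESeq2, 3888 with no filter on low counts and 0 to 2665 with a library left out. In glutamatergic neurons it was 0, against 729, 2295, 0 to 1543, and 357 in nuclei without Tcf7l2. Counts with a library left out were 2295 to 6835 in oligodendrocytes (3782 in all), 1185 to 2929 in astrocytes (2006), 1834 to 3684 in microglia and macrophages (3297), 1246 to 2531 in OPC (2106) and 0 to 102 for the interaction (0). DESeq2 gave 932, 1822 and 831 in astrocytes, microglia and macrophages, and OPC. A stricter lead of the marker list gave 1066 in OPC, and no filter 157 for the interaction. The replicate block gave 2527 (GABA), 993 (glutamatergic) and 5711 (oligodendrocytes) genes, and Penk passed with it in GABA neurons (-0.80, adjusted p = 0.0309). With only 2 pairs, the replicate numbers were not taken as pairing, the correlation of same-numbered deviations being 0.0834 to 0.207. Plain library sizes shifted the median of all genes in GABA against glutamatergic neurons to 0.17 and the split from 2359 higher and 2458 lower to 4881 and 1784, and Oprk1 (0.42), Oprl1 (0.40) and Pdyn (0.73) then passed.

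With a library left out, log2 fold changes of COL over NS ranged in GABA neurons from -0.16 to 0.050 (Oprm1), -0.46 to 0.22 (Oprk1) and -1.74 to 0.22 (Pdyn). In glutamatergic neurons they ranged from -0.23 to 0.46 (Oprm1), -0.22 to 1.01 (Oprk1), -1.03 to 0.061 (Oprd1), -0.60 to 0.12 (Oprl1) and -2.15 to 0.084 (Pdyn). The range was -0.080 to 0.51 (Oprm1) and -0.95 to 0.62 (Oprk1) in oligodendrocytes and -0.38 to 0.55 (Oprm1) and -1.26 to 0.085 (Oprl1) in astrocytes. For the interaction it was -0.38 to 0.051 (Oprm1), -0.022 to 1.45 (Oprd1), -0.54 to 0.77 (Penk), -0.24 to 0.98 (Pdyn) and -0.029 to 0.69 (Pnoc). Oprm1 in astrocytes, at 0.0038, turned to -0.076 with plain library sizes, -0.041 with no filter, -0.40 with the stricter lead and -0.19 without possible doublets. In glutamatergic neurons Oprm1 turned to -0.0066 with Tcf7l2 nuclei alone, and the stricter neuron gate gave Oprk1 at -0.042 and the Penk interaction at -0.16. Differences of shares in percentage points ranged in glutamatergic neurons, with a library left out, from -1.98 to 4.14 (Oprm1), -0.995 to 0.888 (Oprk1), -0.606 to 0.0527 (Oprd1), -1.09 to 0.137 (Oprl1) and -1.24 to 0.0123 (Pdyn), and from -1.77 to 0.0744 for Oprk1 in GABA neurons. Without thinning the signs turned for Oprm1 (5.69), Oprk1 (1.26) and Oprl1 (1.59) in GABA neurons and for Oprk1 (3.79), Oprd1 (0.381) and Oprl1 (2.03) in glutamatergic neurons. Apart from the counts of called genes, the cause of these turns was not tested. DESeq2 gave no adjusted p for Pnoc in astrocytes.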

Other observations

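Opioid genes were also read in small sets of neurons drawn across the neuron classes, which were not tested against other neurons. Neurons with at least 10 UMIs of Nwd2, a gene of medial habenula neurons, numbered 541 and had Oprm1 at 154 and 84.0 CPM in the NS libraries and 153 and 67.5 CPM in the COL libraries, high in replicate 1 of both groups. Pdyn in these nuclei was at 5.19, 5.02, 3.74 and 6.64 CPM, from 7, 7, 16 and 13 UMIs. In 300 neurons with at least 10 UMIs of Npsr1, the neuropeptide S receptor, Oprk1 stood at 25.4, 10.4, 19.8 and 18.4 CPM, and Oprm1 at 113, 65.0, 85.2 and 87.5 CPM.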
